A study of Mus musculus with 6 samples.

Results

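The genes described here are Tnf, Lta and Ltb, which encode tumour necrosis factor, lymphotoxin alpha and lymphotoxin beta and lie side by side on mouse chromosome 17. They were chosen by name, as the rows of the deposited expression table that carry these symbols, and make up 3 of its 13883 genes; all 3 were found, and none was lost to a filter on low values. The table holds RNA sequencing of CD8 T cells, the cytotoxic T cells, of wild-type mice, obtained from spleen and lymph node tissue and activated with antibodies against CD3 and CD28. One group was exposed overnight to 20 mM DAHB, a compound for which the labels give only this abbreviation, and the other to 20 mM NaCl as the control. Each group had 3 samples of 100000 cells, with all 6 samples under a single batch label, and the age of the mice was not stated. Nothing in the labels ties a replicate to its own mouse or culture, so the error behind each p-value is that between 3 samples and can be technical in part.

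Tumour necrosis factor is a trimeric cytokine that is made at the cell surface, released by a protease, and signals through the receptors TNFR1 and TNFR2. Lymphotoxin alpha either is secreted as a trimer of its own, which binds the same receptors, or is held at the surface in a mixed trimer with lymphotoxin beta, which binds the lymphotoxin beta receptor and is known for the building of lymph nodes. Activated T cells are a known source of these cytokines, and tumour necrosis factor is known to be induced quickly through the T cell receptor.

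On the GRCm38 build with the GENCODE M21 annotation, Ltb spans chr17:35194439-35196320 on the forward strand, Tnf spans chr17:35199381-35202007 on the reverse strand and Lta spans chr17:35203165-35205351 on the reverse strand. The 3 genes fill 10913 bases. Ltb and Tnf end towards each other with 3060 bases between them, and 1157 bases separate the end of Lta from the start of Tnf downstream of it. The annotated genes that overlap them are Mir6974 inside the span of Lta and Mir6973a inside the span of Ltb, neither in the table.

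The promoters are shown because all 3 genes rose and their starts lie within 10913 bases. Each runs from 250 bases before to 50 bases after the gene start, 5′ to 3′ on the gene's own strand (RefSeq, GRCm38.p6; chr17:35201958-35202257 for Tnf, chr17:35205302-35205601 for Lta, chr17:35194257-35194556 for Ltb). The RefSeq start of Ltb lies downstream of its GENCODE start. Capitals mark the loose NF-kappaB pattern GGGNNNNNCC on either strand and TATAAA on either strand.
Tnf: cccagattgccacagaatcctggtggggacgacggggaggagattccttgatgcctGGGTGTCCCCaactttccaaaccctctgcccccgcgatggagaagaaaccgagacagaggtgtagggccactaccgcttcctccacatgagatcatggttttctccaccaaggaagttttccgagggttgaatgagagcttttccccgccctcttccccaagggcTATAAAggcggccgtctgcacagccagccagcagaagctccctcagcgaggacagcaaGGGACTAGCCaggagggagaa
Lta: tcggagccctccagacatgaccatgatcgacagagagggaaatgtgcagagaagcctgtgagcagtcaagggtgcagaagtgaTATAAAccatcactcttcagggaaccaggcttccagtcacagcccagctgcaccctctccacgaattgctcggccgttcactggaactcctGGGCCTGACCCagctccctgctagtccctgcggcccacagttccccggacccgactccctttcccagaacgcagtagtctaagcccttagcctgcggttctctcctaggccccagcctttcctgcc
Ltb: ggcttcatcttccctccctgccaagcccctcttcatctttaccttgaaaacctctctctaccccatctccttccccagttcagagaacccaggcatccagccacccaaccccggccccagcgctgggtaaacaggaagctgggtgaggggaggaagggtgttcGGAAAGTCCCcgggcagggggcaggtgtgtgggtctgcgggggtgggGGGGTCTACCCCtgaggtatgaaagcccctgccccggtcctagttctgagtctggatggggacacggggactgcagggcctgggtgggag
The Tnf promoter holds TATAAA 29 to 24 bases before the start, whereas the TATAAA of Lta lies 167 to 162 bases before its start and Ltb has none. TATAAA occurs in 13.6% of 32817 RefSeq promoters of this length, searched on both strands. The pattern GGGNNNNNCC, which 50.8% of promoters hold, occurs at 2 positions in Tnf, 2 overlapping positions in Lta and 4 positions in Ltb, of which 3 overlap. The NFAT core GGAAA, held by 61.3% of promoters, occurs 3 times in Tnf, 3 times in Lta and 1 time in Ltb, where it overlaps the NF-kappaB pattern. The AP-1 pattern TGANTCA (7.81% of promoters) occurs in none of the 3, and the related TGANNTCA (14.1%) occurs 1 time, in Tnf.

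The 3 mRNAs also differ in the AU-rich element, a 3′ UTR sequence through which Tnf mRNA is known to be bound by the decay factor tristetraprolin. In the annotated transcript with the longest 3′ UTR, Tnf holds the nonamer TTATTTATT 5 times in 764 bases, Lta holds it 1 time in 572 bases, and Ltb holds neither it nor the pentamer ATTTA in 174 bases. Of 12336 genes of the table with an annotated 3′ UTR, 8.29% hold the nonamer on the sense strand and 0.146% hold it at least as often as Tnf. The stretches of 30 bases with the most nonamers are printed in the sense direction with the pentamer ATTTA in capitals (chr17:35199679-35199708 for Tnf, chr17:35203404-35203433 for Lta, reverse strand, GENCODE M21 transcripts).
Tnf: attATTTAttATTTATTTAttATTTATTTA
Lta: tatggagagaaaagttaagttATTTATTTA

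The comparison asked which mRNAs differ between activated CD8 T cells given DAHB and those given NaCl, in a study of mitochondrial ATP production, chromatin accessibility and T cell function. All 3 genes were higher in DAHB-treated cells, by 8.85-fold for Lta, 6.08-fold for Tnf and 3.01-fold for Ltb as ratios of group means. Values are normalised counts, the reads of a gene divided by the size factor of its library. Calls are by limma-trend on log2(normalised count + 1) with Benjamini-Hochberg adjustment over all 13804 genes tested and a threshold of 0.05. Fold changes are on that scale and relative to the bulk of genes.

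Lta had normalised counts of 54566, 58552 and 52482 in DAHB libraries, against 6497, 6177 and 6029 in NaCl libraries. Every DAHB library stood above every NaCl library, with means of 55200.0 ± 3085 in DAHB and 6234 ± 239 in NaCl (SD, n = 3 each). Its log2 fold change was 3.15 (SE 0.050, 95% interval 3.04 to 3.25, limma adjusted p = 1.59e-14). In these bulk samples, more cells that make a transcript and more transcript in each cell cannot be told apart.

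Tnf had normalised counts of 14401, 12546 and 12359 in DAHB libraries, against 2212, 2235 and 2019 in NaCl libraries. The groups did not overlap, and DAHB replicate 1 was the highest of its group while the other two DAHB libraries lay close together. The means were 13102 ± 1129 in DAHB and 2155 ± 118 in NaCl (SD, n = 3 each), a log2 fold change of 2.60 (SE 0.061, 95% interval 2.47 to 2.73, limma adjusted p = 1.07e-12). Without DAHB replicate 1 the log2 fold change was 2.53.

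Ltb had normalised counts of 8807, 9358 and 8802 in DAHB libraries, against 2936, 3061 and 2957 in NaCl libraries. Its libraries were tightly grouped and did not overlap, with means of 8989 ± 319 in DAHB and 2985 ± 67.0 in NaCl (SD, n = 3 each). The log2 fold change was 1.59 (SE 0.044, 95% interval 1.49 to 1.69, limma adjusted p = 5.58e-12). Against these 3 of 3 calls stand 58.5% of all genes tested that passed in either direction, 29.4% that passed as higher in DAHB, and 10.6% that passed with a rise of at least 2-fold. For 31.8% of all genes tested, every DAHB library lay above every NaCl library, as for Tnf, Lta and Ltb, and for 31.6% every DAHB library lay below.

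**Figure D1:**
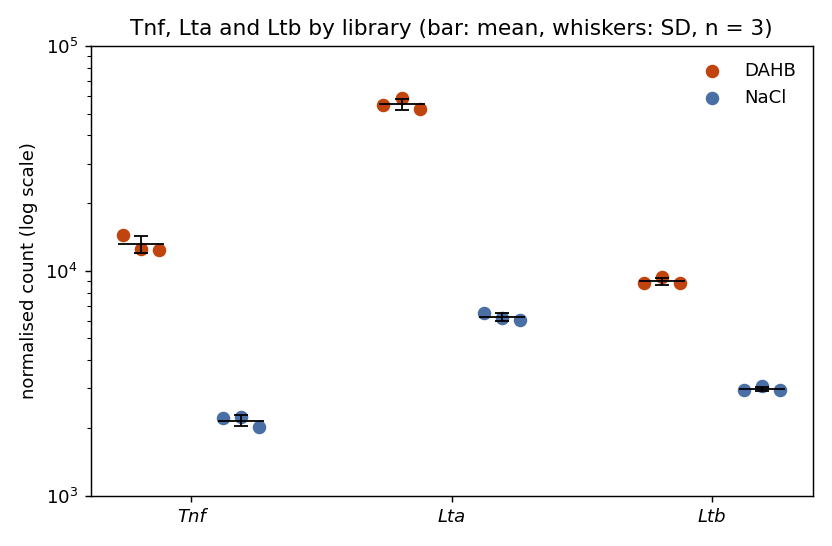
Normalised counts of Tnf, Lta and Ltb on a log axis, with 1 point per library, DAHB left of NaCl for each gene, bars for the mean and whiskers for the SD (n = 3). The DAHB points of Lta lie between 52482 and 58552 and its NaCl points between 6029 and 6497, and the groups do not overlap for any of the 3 genes.

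Larger fold changes than that of Lta were measured in 136 of 13804 genes, or 0.985%, and the only one of these with a DAHB mean at least as high was the interferon gamma gene Ifng. For Tnf, 242 genes (1.75%) had a larger fold change, of which Lta, Ifng and the chemokine genes Ccl3 and Ccl4 were at or above its DAHB mean. For Ltb the number was 782 genes (5.67%), of which Ifng, Ccl3, Ccl4, Lta, Tnf and Xcl1 were at or above its DAHB mean. These genes were named after their values were seen.

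The combined reads of the 3 genes amounted to 2114 to 2282 RPM in DAHB libraries, against 315 to 333 RPM in NaCl libraries, where RPM is the usual share of all reads counted in a library. By whole reads recovered from the table, Lta had between 47274 and 55080 reads in a DAHB library, against 5589 to 9664 in a NaCl library, out of 31055613 to 56007582 reads per library. Tnf had 11133 to 13120 reads in a DAHB library, against 2017 to 3237 in a NaCl library, and Ltb had 7929 to 8803 reads in a DAHB library, against 2678 to 4740 in a NaCl library. At this depth the exact 95% binomial interval of the share of Tnf in NaCl replicate 3 was 55.8 to 59.8 RPM, which covers counting error only.

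The rise was steepest for Lta and least for Ltb, and the ratios between the cytokine mRNAs did not overlap between the groups, although 3 libraries a group are too few for an exact test of a ratio to pass. Lta had 6.20, 6.26 and 5.96 normalised counts for each one of Ltb in DAHB libraries, against 2.21, 2.02 and 2.04 in NaCl libraries. This ratio was thus 6.14 ± 0.156 in DAHB and 2.09 ± 0.107 in NaCl (SD, n = 3 each), a log2 difference of 1.56 (SE 0.047). The ratio of Lta to Tnf was 4.23 ± 0.439 in DAHB and 2.90 ± 0.116 in NaCl (SD, n = 3 each), a log2 difference of 0.54 (SE 0.093). The ratio of Ltb to Tnf was 0.690 ± 0.0699 in DAHB and 1.39 ± 0.0699 in NaCl (SD, n = 3 each), a log2 difference of -1.01 (SE 0.096). The exact two-sided permutation test gave p = 0.1 for each pair, and 0.1 after adjustment over the 3 pairs, which is the smallest value that 3 libraries against 3 can reach, so none passed 0.05. Each ratio is taken within a library and does not depend on the size factors.

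Set on a scale of normalised counts per kilobase of annotated exon, which allows genes to be compared, Lta was highest in both groups. Its level per kilobase was 39913 ± 2230.3 in DAHB and 4508 ± 173 in NaCl (SD, n = 3 each). Below it the order differed: Tnf stood at 7994 ± 689 and Ltb at 5929.6 ± 211 per kilobase in DAHB, and Tnf at 1315 ± 72.1 and Ltb at 1969 ± 44.2 per kilobase in NaCl (SD, n = 3 each). Within each group the libraries of Tnf and Ltb did not overlap on this scale. The order in DAHB rests on the length used for Ltb, whose exons together measure 1516 bases but whose longest coding transcript measures 1160 bases. With that transcript length, chosen as an alternative after seeing the data, Ltb averaged 7749 ± 275 per kilobase in DAHB and 2573 ± 57.8 in NaCl. Tnf and Ltb then overlapped in DAHB, while Ltb remained above Tnf in every NaCl library.

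By level per kilobase, Lta ranked 21 among 13776 genes in DAHB and 353 in NaCl. Tnf ranked 187 in DAHB and 1469 in NaCl, and Ltb ranked 259 in DAHB and 954 in NaCl. Lta made up 74.1% ± 1.20 of the summed level per kilobase of the 3 genes in DAHB and 57.8% ± 0.969 in NaCl (SD, n = 3 each). The share of Ltb was 11.0% ± 0.287 in DAHB and 25.3% ± 0.888 in NaCl, and that of Tnf was 14.9% ± 1.32 in DAHB and 16.9% ± 0.518 in NaCl (SD, n = 3 each). The shares of Lta and of Ltb did not overlap between the groups, while those of Tnf, at 13.6% to 16.3% in DAHB and 16.3% to 17.4% in NaCl, nearly met. These ranks and shares use the annotated exon length of Ltb, on which the order of Tnf and Ltb in DAHB rests.

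**Figure D2:**
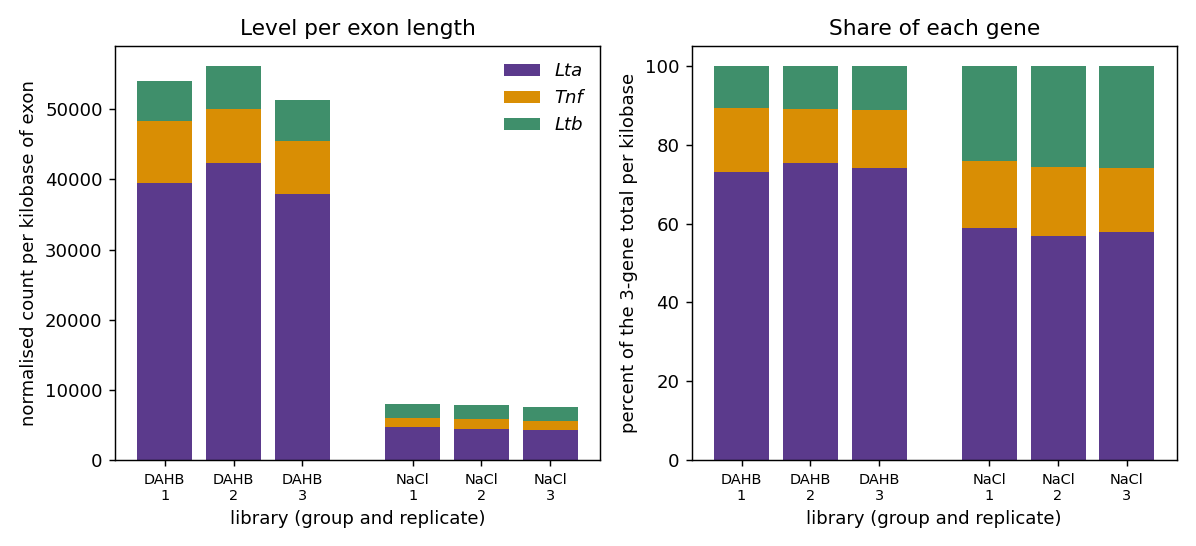
Left, stacked normalised counts per kilobase of exon for Lta, Tnf and Ltb in each library, DAHB left of NaCl. Right, the percent of the 3-gene total that each gene takes, in which Lta has 73.0% to 75.4% in DAHB libraries and 56.9% to 58.8% in NaCl libraries.

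Of the 26 other annotated genes that start within 100 kb of the 3 genes, 11 were in the table, of which 4 rose, 2 fell and 5 missed the threshold. Over all genes tested, 29.4% rose and 29.1% fell, and 58.5% passed in either direction. The median log2 fold change of the neighbours was 0.04, against 0.00 over all genes tested. Nfkbil1, whose product is related to inhibitors of NF-kappaB, rose to 996 ± 29.4 in DAHB, against 429 ± 9.31 in NaCl, a log2 fold change of 1.21 (limma adjusted p = 3.54e-09). It overlaps Atp6v1g2 on the other strand, and the strand setting of the counting is not given in the sources used here. H2-D1, a classical MHC class I gene whose reads can be shared with its close paralogs, rose by a log2 fold change of 0.40 to 45382 ± 1295 in DAHB, against 34481 ± 1492 in NaCl.

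The other two neighbours that rose were weakly expressed. Lst1, a leukocyte gene, had normalised counts of 47.2, 71.2 and 65.5 in DAHB libraries, against 9.87, 9.95 and 10.6 in NaCl libraries, a log2 fold change of 2.46 (limma adjusted p = 3.41e-06). Aif1, known as a macrophage marker, had 36.2, 33.0 and 33.3 in DAHB libraries, against 5.48, 13.3 and 13.1 in NaCl libraries, a log2 fold change of 1.69 (limma adjusted p = 0.00102). Of 7 macrophage and monocyte markers, 3 (Lyz2, Cd68 and Adgre1) rose and 0 fell, beside 29.4% and 29.1% of all genes tested. The groups of Lyz2 overlapped. Csf1r, Cd14, Itgam and Fcgr1 did not pass, with log2 fold changes of 0.55, -0.44, -0.003 and -0.25. None of the 7 was at 0 in any library, which says little, since no gene of the table had fewer than 61 reads over the 6 libraries. The summed normalised count of these markers was 1399 to 1682 in DAHB libraries and 713 to 1312 in NaCl libraries. Their part in these results was not tested.

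The neighbours that fell moved little. The chaperone gene Bag6 changed by a log2 fold change of -0.14 (limma adjusted p = 0.0217) and D17H6S53E by -0.25 (adjusted p = 0.0442). Bag6 lost its call without DAHB replicate 2 (adjusted p = 0.0727), DAHB replicate 3 (0.109), NaCl replicate 1 (0.0923) or NaCl replicate 3 (0.0517). D17H6S53E lost its call without DAHB replicate 2 (adjusted p = 0.0697), DAHB replicate 3 (0.164), NaCl replicate 1 (0.0611), NaCl replicate 2 (0.151) or NaCl replicate 3 (0.0732). Csnk2b, Gpank1, Prrc2a, Atp6v1g2 and the RNA helicase gene Ddx39b did not pass, with log2 fold changes between -0.38 (Atp6v1g2) and 0.11 (Prrc2a).

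**Figure D3:**
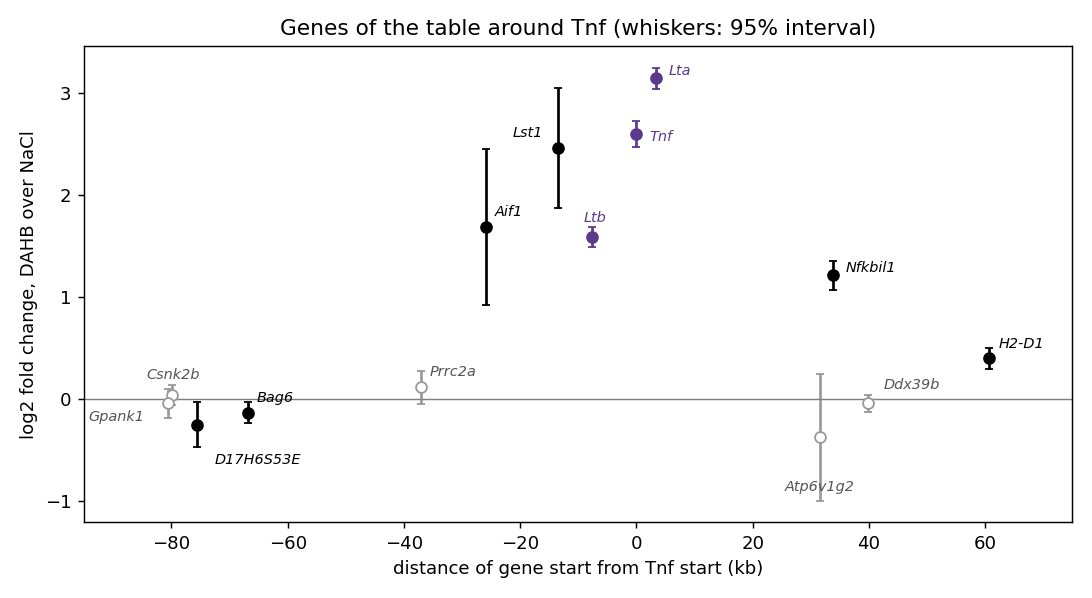
Log2 fold change, DAHB over NaCl, of the genes of the table against the distance of their start from that of Tnf in kb. Whiskers are 95% intervals from limma, filled points passed the test, and purple marks Tnf (2.60), Lta (3.15) and Ltb (1.59), among neighbours that reach from -0.38 (Atp6v1g2) to 2.46 (Lst1).

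Of 4 genes for receptors that bind these cytokines, 2 rose and 0 fell, against 29.4% and 29.1% of all genes tested, and their median log2 fold change was -0.05. The highest, 0.61, lay below those of Tnf, Lta and Ltb. Tnfrsf1b, which encodes TNFR2, had normalised counts of 4466, 4375 and 4305 in DAHB libraries, against 2866, 2792 and 2965 in NaCl libraries, a log2 fold change of 0.61 (SE 0.045, limma adjusted p = 6.18e-08). Tnfrsf1a, which encodes TNFR1, had 968, 1129 and 974 in DAHB libraries, against 927, 874 and 918 in NaCl libraries, a log2 fold change of 0.17 (limma adjusted p = 0.0482). The Tnfrsf1a call was lost without DAHB replicate 2 (adjusted p = 0.245), NaCl replicate 1 (0.0744), NaCl replicate 2 (0.14) or NaCl replicate 3 (0.086), which leaves 1 receptor that rose. Ltbr, the lymphotoxin beta receptor, was weakly expressed, at 28.3 ± 1.57 in DAHB and 34.5 ± 2.82 in NaCl (SD, n = 3 each, limma adjusted p = 0.342). Tnfrsf14, which encodes the herpesvirus entry mediator that also binds lymphotoxin alpha, was at 167 ± 45.0 in DAHB and 202 ± 8.03 in NaCl (limma adjusted p = 0.115). It passed as lower without DAHB replicate 1 (adjusted p = 0.00237), so that the number of receptors that passed was then 3.

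Tumour necrosis factor is cut from the surface by ADAM17 with the help of iRhom proteins. Of 8 genes of surface release and processing, 3 rose and 3 fell, around a median log2 fold change of 0.07, where 58.5% of all genes tested passed in either direction (29.4% rose and 29.1% fell). Rhbdf2, which encodes iRhom2, rose to 1284 ± 145 in DAHB, against 510 ± 13.5 in NaCl, a log2 fold change of 1.33 (SE 0.080, limma adjusted p = 8.40e-09). Its paralog Rhbdf1 fell to 344 ± 42.2 in DAHB, against 510 ± 30.1 in NaCl, a log2 fold change of -0.57. The sheddase gene Adam10 and the intramembrane protease gene Sppl2a also fell and had log2 fold changes of -0.56 and -0.29. Adam17 itself was at 4430 ± 147 in DAHB and 4011 ± 61.5 in NaCl, a log2 fold change of 0.14 (limma adjusted p = 0.0126), and is outside the rule for named genes. Its call was lost without DAHB replicate 3 (adjusted p = 0.0686) or NaCl replicate 3 (0.0558).

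Of 21 genes that carry the signal from TNF receptors, 3 rose and 8 fell, with a median log2 fold change of -0.11, beside 29.4% that rose and 29.1% that fell over all genes tested. Without NaCl replicate 2, 5 of the 21 fell, since Ikbkb (adjusted p = 0.128), Ripk1 (0.0558) and Birc2 (0.0727) lost their calls. The risers were the necroptosis kinase gene Ripk3, at 2875 ± 31.8 in DAHB and 1535 ± 44.6 in NaCl, its substrate gene Mlkl, at 725 ± 4.28 in DAHB and 480 ± 27.2 in NaCl, and the TNFR1 adaptor gene Tradd, at 1288 ± 22.9 in DAHB and 798 ± 19.2 in NaCl (SD, n = 3 each). Their log2 fold changes were 0.91, 0.60 and 0.69. Rbck1, which encodes a subunit of the linear ubiquitin ligase, fell, with a log2 fold change of -0.51. Of 7 genes of the non-canonical NF-kappaB pathway, which the lymphotoxin beta receptor is known to use, 5 fell and 0 rose, with a median of -0.23, where 29.1% of all genes tested fell and 29.4% rose; Chuk, Birc2 and Birc3 stand in both lists. Among those that fell, Relb, Chuk, Nfkb2 and Birc2 had log2 fold changes of -0.38, -0.36, -0.28 and -0.23. Without NaCl replicate 2, 3 of the 7 fell, the calls of Birc2 (adjusted p = 0.0727) and Traf3 (0.117) being lost. The list mixes activators of the pathway with Traf3, Birc2 and Birc3, whose products are known to restrain it. Its counts and median therefore give no direction for pathway activity, which was not tested.

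Of 13 inhibitors and feedback genes of NF-kappaB, 4 rose and 6 fell, with a median log2 fold change of -0.06. The shares over all genes tested were 29.4% that rose and 29.1% that fell. Bcl3, an atypical I-kappaB protein gene, rose to 1471 ± 180.4 in DAHB, against 684 ± 42.5 in NaCl, and the deubiquitinase gene Otulin to 9436 ± 364 in DAHB, against 6333 ± 417 in NaCl. The inhibitor gene Nfkbie fell, with a log2 fold change of -0.57. Nfkbiz had normalised counts of 898, 466 and 488 in DAHB libraries, against 980, 896 and 790 in NaCl libraries, so that the groups overlapped, and its log2 fold change of -0.59 lost its call without DAHB replicate 3 (adjusted p = 0.0775) or NaCl replicate 1 (0.0599).

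Of 17 genes of AU-rich element binding and mRNA decay, 2 rose and 7 fell, with a median log2 fold change of -0.08, next to 29.4% and 29.1% of all genes tested. Zfp36l1, a relative of Zfp36, had normalised counts of 6112, 4744 and 4736 in DAHB libraries, against 4564, 4586 and 4313 in NaCl libraries, a log2 fold change of 0.20 (limma adjusted p = 0.0414). DAHB replicate 1 was the highest. Without that library the log2 fold change was 0.08 and the call was lost (adjusted p = 0.111), as it was without NaCl replicate 1 (0.0769), NaCl replicate 2 (0.0599) or NaCl replicate 3 (0.124), which leaves 1 gene of the list that rose. Zfp36, which encodes tristetraprolin, had normalised counts of 859, 797 and 711 in DAHB libraries, against 1038, 1012 and 966 in NaCl libraries, a log2 fold change of -0.35 (limma adjusted p = 0.000938). Rc3h1, which encodes the RNA-binding protein Roquin-1, and Zc3h12d, of the Regnase family, also fell and had log2 fold changes of -0.36 and -0.46. Arid5a, known to stabilise cytokine mRNAs, rose to 3471 ± 198 in DAHB, against 2348 ± 52.1 in NaCl, a log2 fold change of 0.56. Elavl1, outside the rule for named genes, fell by a log2 fold change of -0.16 (limma adjusted p = 0.00738). Quantile normalisation moved Elavl1 to -0.08, short of the threshold. The list mixes decay factors with genes such as Arid5a. Its counts and median therefore give no direction for mRNA stability, which was not tested.

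Of 27 transcription factors and coactivators known to act on these genes or on activated T cell genes, 6 rose and 13 fell, with a median log2 fold change of -0.03, while 29.4% of all genes tested rose and 29.1% fell. The AP-1 subunit genes Fosb, Jun and Fos were among those that fell and had log2 fold changes of -2.11, -1.32 and -1.13. The other Jun, Fos and Batf family genes of the list did not all fall. Fosl2 (-0.71) and Jund (-0.12, with overlapping groups) fell, and Batf rose (0.36). Junb, with means of 26707 in DAHB and 26711 in NaCl, did not pass. Jun had normalised counts of 751, 667 and 634 in DAHB libraries, against 1750.0, 1663 and 1695 in NaCl libraries. Nfatc2, a calcium-dependent activator, rose to 3515 ± 431 in DAHB, against 1947 ± 111 in NaCl, a log2 fold change of 0.85.

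**Figure D4:**
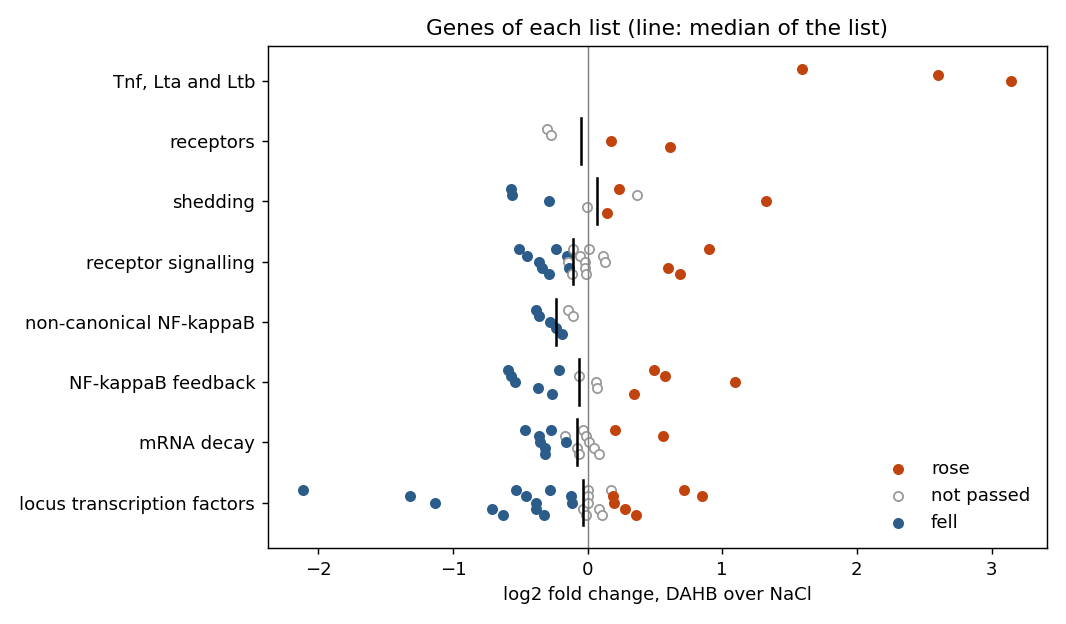
Log2 fold change, DAHB over NaCl, of each tested gene of the pathway lists, with Tnf, Lta and Ltb on top. Points are coloured by whether the gene rose, fell or did not pass, and the vertical lines are list medians, which lie between -0.23 and 0.07, against 1.59 to 3.15 for the 3 cytokine genes.

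The genes with the most similar pattern were found for each of the 3 by the root mean square distance over the 6 libraries between log2 values set to a NaCl mean of 0, among 10141 other genes. For Tnf these were the Notch ligand gene Jag2 (distance 0.047), the prostacyclin receptor gene Ptgir (0.062), Fam83g (0.084) and the chemokine gene Ccl4 (0.119). For Lta they were the actin-bundling gene Fscn1 (0.074), Plac8 (0.113), the gelsolin gene Gsn (0.116) and the creatine kinase gene Ckb (0.143). For Ltb they were Sfn (0.058), the transcriptional regulator gene Id2 (0.058), the perforin gene Prf1 (0.065) and the glutathione transferase gene Gstp1 (0.067). The 3 cytokine genes were less close to each other than these. Lta was number 106 in order of distance from Tnf (0.396). Ltb was number 317 from Tnf (0.722) and number 344 from Lta (1.10). In the other direction, Tnf was number 61 from Lta, and from Ltb, Tnf was number 1176 and Lta number 4181. The distance follows mainly from the difference in log2 fold change, so these ranks restate the differing rises and do not test the locus.

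Correlations between libraries followed the group labels. Pearson correlations of log2 values across genes were 0.992 to 0.995 within groups and 0.962 to 0.967 between groups. All 7 CD8 T cell markers were in the table. Of these, 3 rose (Cd8a, Cd8b1 and Cd3g) and 1 fell (Cd3d), where 29.4% of all genes tested rose and 29.1% fell. Cd8a averaged 19112 in DAHB and 12729 in NaCl, and Cd8b1 averaged 10385 in DAHB and 7271 in NaCl. The summed normalised count of the 7 was 87264 to 90617 in DAHB libraries and 79083 to 81670 in NaCl libraries. Its largest part in both groups was Thy1, which did not pass, with means of 30414 in DAHB and 31337 in NaCl. Of B cell markers only Cd79b, of 6, was in the table, at 549 to 623 in DAHB libraries and 118 to 149 in NaCl libraries, and it rose. Of 4 CD4 T cell markers, 3 were in the table, 2 rose and none was at 0, as for nearly all genes of the table. Their sum was 1561 to 1885 in DAHB and 659 to 675 in NaCl libraries. Most of it was Zbtb7b, with means of 1574 in DAHB and 602 in NaCl. Cd4 averaged 65.5 in DAHB and 11.6 in NaCl, and Cd40lg did not pass (limma adjusted p = 0.813). Of 5 dendritic cell markers, 2 were in the table, of which 1 rose (Itgax) and 1 fell (Zbtb46). Itgax was weakly expressed with overlapping groups, at means of 27.5 in DAHB and 12.3 in NaCl. The sum of these 2 markers was 336 to 348 in DAHB and 441 to 519 in NaCl libraries, most of it Zbtb46, with means of 316 and 462. Of 6 stromal and endothelial markers, 4 were in the table and 2 (Pecam1 and Pdgfrb) rose. Their sum was 1455 to 1509.8 in DAHB libraries and 788 to 886 in NaCl libraries, most of it Pecam1, with means of 1108 and 610. Col1a1 and Col1a2 did not pass. Of 3 NK cell markers 0 were in the table. A marker missing from the table can still have had some reads, since no gene in it had fewer than 61 over the 6 libraries. The part of other cell types in the results was not tested.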

How the data were processed

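Total RNA of 6 samples, 3 treated with DAHB and 3 with NaCl, was sequenced. The submitters' processing notes list DESeq2, featureCounts 1.5.2, STAR 2.5.2b and Trimmomatic 0.36 and the build GRCm38; the annotation release and strand setting are not given in the sources used here. The deposited values are a signal on a normalised scale, reads per gene over a size factor per library. Divided by what 1 read is worth, 100% of them came out whole in each library (tolerance 0.001), which gave the reads and depths of 31055613 to 56007582. Between replicates, chi-square over its degrees of freedom was 4.58 to 17.1, so no library was a repeat of another.

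The test covered the 13804 of 13883 genes that reached a normalised count of 10 in 3 or more libraries, and ran on log2(normalised count + 1), DAHB minus NaCl, with limma-trend (limma 3.58.1, R 4.3.3); all adjusted p-values of genes are from it unless another tool is named. By limma 8071 genes were called, and on the recovered reads 8084 by edgeR 4.0.16 and 7670 by DESeq2 1.42.0. Ratios between the 3 genes were compared by exact permutation tests. Intervals of shares are exact 95% binomial intervals. Exon lengths and positions are from GENCODE M21. The procedure was also run on simulated counts with few changed genes and the same dispersion for all genes. That setting differs from these data, where 8071 of 13804 genes were called, so the run does not test the calls here. Other software was matplotlib 3.10.9, scipy 1.17.1, pandas 2.3.3 and Python 3.11.15.

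The 3 genes, the gene lists and the markers were chosen with earlier results of these data known. The genes named are the 3 cytokine genes, all genes of the table starting within 100 kb of them, and up to 4 members of each list that passed, by absolute log2 fold change, where the higher group averaged 100 or more. To these come the 4 genes nearest in pattern to each cytokine gene among those with such a mean, leaving out predicted genes. A few further genes complete small lists or counts, and were chosen after their values were seen. Alternatives were pseudocounts of 0.5 and 10, no filter, a minimum of 50, quantile normalisation, equal library totals, a replicate block, each library left out, edgeR and DESeq2.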

Additional observations from a re-analysis of the deposited data

How the results depend on the processing

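Lta, Tnf and Ltb kept their direction and stayed past the threshold under all 15 alternatives, with log2 fold changes of 3.10 to 3.18 for Lta, 2.53 to 2.67 for Tnf and 1.56 to 1.67 for Ltb. With each library left out in turn they were 3.10 to 3.18, 2.53 to 2.64 and 1.56 to 1.61. The number of genes called ranged from 7054 to 8139, and of the 107 genes of the lists and the 3 cytokine genes 74 had the same call under every alternative. The differences between the cytokine genes kept their direction, at 0.47 to 0.62 for Lta against Tnf, -1.07 to -0.93 for Ltb against Tnf and 1.53 to 1.60 for Lta against Ltb on the log2 scale. The number of receptor genes that passed was 4 under quantile normalisation, where Ltbr (adjusted p = 0.01) and Tnfrsf14 (0.00644) passed as lower, and 1 under DESeq2, where Tnfrsf1a did not pass (0.0594). With each library left out it was 1 to 3, and for the non-canonical NF-kappaB genes it was 3 to 6; the cause was not tested. Same-numbered libraries of the groups did not deviate together (correlations -0.154 to 0.0405). With 3 libraries a group, such correlations cannot show whether same-numbered samples share a mouse or culture, which the labels do not state. With the replicate number as a block 7772 genes were called, and 1 receptor gene passed, since Tnfrsf1a had an adjusted p of 0.0706; the log2 fold changes of Tnf, Lta and Ltb stayed at 2.60, 3.15 and 1.59. Depth does not limit the cytokine genes, while Ltbr, Lst1, Aif1, Atp6v1g2 and Timp3 rest on few reads and were not tested with a minimum count of 50. Atp6v1g2 passed as lower under quantile normalisation, with a log2 fold change of -0.88 (limma adjusted p = 0.0157).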
